A study of Mus musculus with 8 samples.

Results

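Clotting and fibrinolysis genes of the vessel wall, 9 of 23649 named genes on the array, were followed in CD31-bearing cells of mouse embryos that carry a mutation of the Gata2 +9.5 enhancer. They are Vwf, F3, F5, F8, F13a1, Thbd, Tfpi, Pros1 and Plat, and they were taken as every non-control probe whose gene name on the array equals one of these symbols, which gave 16 of 55681 probes. The 4 wild type embryos and the 4 mutants, labelled Gata2+9.5-/-, were littermates at E12.5 from crosses of heterozygous carriers on a C57Bl/6J background. The 2 litters each gave 2 embryos of either genotype. Cells were bound to anti-CD31 magnetic beads after liver and brain had been removed, and the RNA of each embryo was hybridised to its own 1-colour array. Wild type embryos 1 and 2 and mutants 1 and 2 came from litter 1, and wild type embryos 3 and 4 and mutants 3 and 4 came from litter 2. The arrays of a litter shared a slide and a scan run, so litter, slide and scan cannot be told apart.

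Clotting starts when tissue factor outside the blood meets a plasma protease, and it runs through protease complexes whose cofactors are factor V and factor VIII until fibrin is formed and cross-linked by factor XIII. The vessel wall holds this in check with thrombomodulin, protein S and tissue factor pathway inhibitor, and it releases tissue plasminogen activator, which starts the digestion of fibrin. Endothelium is a known source of von Willebrand factor, thrombomodulin and tissue factor pathway inhibitor, whereas factor V is carried by platelets and the A subunit of factor XIII is made by megakaryocytes and macrophages.

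Levels are log2 of the processed signal minus the 75th percentile of the array, so a level of 0 is a signal at that percentile, and a level of 1 probe is not set against that of another. The brightest probe that was well above background on at least 4 of 8 arrays stood for each gene, and all 9 genes had such a probe, well above background on all 8 arrays and saturated on none. Differences are mutant minus wild type on this log2 scale, tested with limma over 40244 features with Benjamini-Hochberg adjustment and a threshold of 0.05. Of these features 21371 have a gene symbol, so shares of all features are not shares of genes. Gata2 itself, used as a check of the labels, lay at 0.89 to 2.00 in wild type and at -1.27 to -0.15 in mutant embryos, a difference of -2.42 ± 0.39 (SE; limma adjusted p = 0.0859), and its groups did not overlap. All 15 endothelial markers were well above background on all 8 arrays, and their median level was 3.48 to 5.56 in wild type and 4.14 to 5.73 in mutant embryos. Wild type embryos 2 and 3 and mutant 4 stood apart on the first principal component, which carried 58.9% of the variance, at 99.8, 159 and 124 against -128 to 23.2 in the other arrays. Between 74.9% and 92.0% of spots were well above background, with 92.0% in wild type 3 and 91.9% in mutant 4.

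None of the 9 genes passed the threshold for genotype, where 0.0447% of all features did, each of those lower in mutants. Factor V had the largest difference of the 9, with less signal in mutants on both of its probes, and F8 was the only other gene with an unadjusted limma p below 0.05. These are 2 of 9 genes lower in mutants at that unadjusted level, against 2.67% of all features, and 0 of 9 higher, against 0.38%. Over the 9 genes 5 differences were below 0 and 4 above it, with a median of -0.40, beside a median of 0.05 and 47.6% below 0 over all features. The 5 genes below 0 were the adhesive protein and the procoagulant genes Vwf, F3, F5, F8 and F13a1, and the 4 above 0 were the anticoagulant and fibrinolytic genes Thbd, Tfpi, Pros1 and Plat. This split was not tested, and it depends on the scaling: with quantile normalization Thbd was at -0.14, Pros1 at -0.12 and Tfpi at 0.05. The second F3 probe was at 0.03. The split was also not seen in the lists of other clotting genes described below. Other plasma factors had 9 differences above 0 and 2 below, with a median of 0.30. Other anticoagulant genes had 4 above and 7 below, with a median of -0.15, and other fibrinolysis genes had 5 on either side. No gene was separated by genotype on its brightest probe, which 0.534% of features lower in mutants were.

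**Figure D1:**
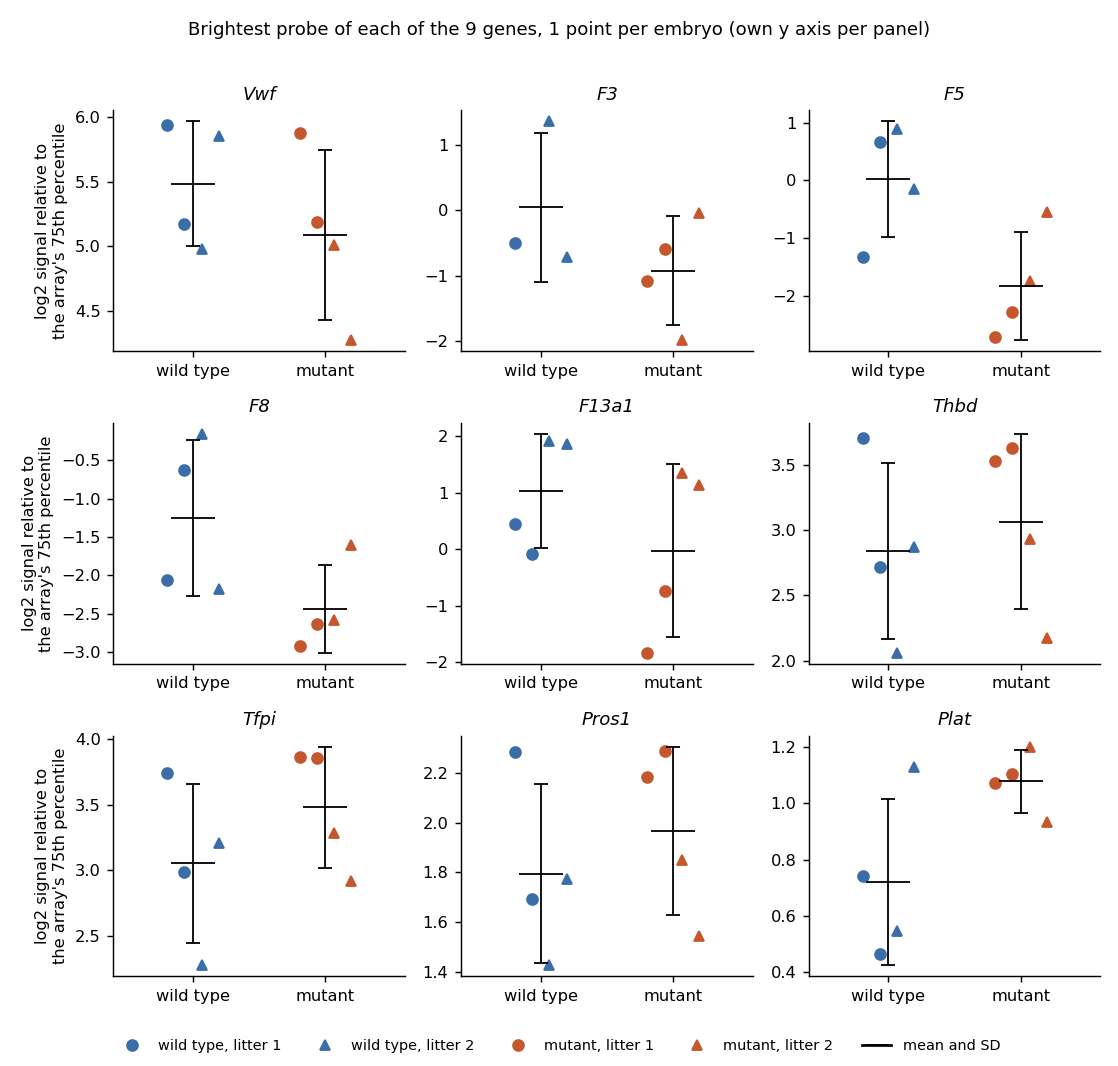
Level of the brightest probe of each of the 9 genes in each embryo, as log2 signal relative to the 75th percentile of the array, with circles for litter 1, triangles for litter 2 and bars for the mean and SD of each genotype. Each panel has its own y axis. F5 and F8 have 3 of 4 mutants below all wild type embryos, and in F13a1 all litter 2 embryos lie above all litter 1 embryos.

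The brightest probes of F3, F5 and F8 bind across an intron: their mm9 coordinates span far more than their own 60 bases, so the letters on both sides of the junction come together only in spliced RNA. Their sequences are shown because the differences of F3, F5 and F8 on the brightest probe rest on them, and the other probes of F3 and F8 gave smaller ones. The sequences are given 5′ to 3′ in lower case, since no part of them is singled out.
F3: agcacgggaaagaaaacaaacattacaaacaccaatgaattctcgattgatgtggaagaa
F5: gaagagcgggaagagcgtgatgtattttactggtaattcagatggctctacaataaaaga
F8: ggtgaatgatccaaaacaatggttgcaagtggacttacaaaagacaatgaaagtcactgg
The F3 probe spans 738 bases at chr3:121434609-121435346 (plus strand), the F5 probe 2189 bases at chr1:166139728-166141916 (plus strand), and the F8 probe 889 bases at chrX:72455821-72456709 (minus strand).

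Vwf encodes von Willebrand factor, the multimer that tethers platelets to injured wall and carries factor VIII in plasma. Its brightest probe (chr6:125636551-125636610, plus strand, mm9) gave levels of 5.94, 5.17, 4.98 and 5.85 in wild type embryos 1 to 4 and of 5.88, 5.19, 5.01 and 4.27 in mutants 1 to 4. Mutants 1, 2 and 3 lay within the wild type range, and mutant 4 was the lowest of the 8. The means were 5.48 ± 0.48 and 5.09 ± 0.66 (SD, n = 4 each), a difference of -0.40 with a 95% confidence interval of -1.32 to 0.52, which includes 0 (limma adjusted p = 0.718). By litter it was -0.02 in the first and -0.77 in the second. With quantile normalization it was -0.82, with an unadjusted limma p of 6.53e-03 and an adjusted p of 0.717. It was -0.13 with the array median as scale and also without mutant 4. A second Vwf probe, designed to another transcript model (chr6:125542106-125542165), differed by -0.36 ± 0.42 (SE).

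F3 encodes tissue factor, the transmembrane receptor that starts clotting. The probe across its intron read -0.50, 1.36 and -0.71 in wild type embryos 1, 3 and 4 and -1.08, -0.58, -1.98 and -0.03 in mutants 1 to 4, and the spot of wild type 2 was left out as an outlier marked by the scanner software. Wild type 3 was the highest and mutant 3 the lowest, and the groups overlapped. The difference was -0.97 ± 0.62 (SE; limma adjusted p = 0.718). The second probe, at chr3:121437717-121437776, read -1.74, -1.87, -1.28 and -0.83 in wild type embryos 1 to 4 and -1.52, -1.29, -1.39 and -1.42 in mutants 1 to 4. Its difference of 0.03 had a confidence interval of -0.70 to 0.75, and over the 7 arrays with both values the probes correlated at r = 0.078. The probes of F3 therefore disagree, and with the mean of both in place of the brightest the difference was -0.23.

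F5 encodes factor V, the cofactor of the protease that makes thrombin, and platelets store part of the blood's supply. On the probe across its intron the levels were -1.32, 0.67, 0.88 and -0.15 in wild type embryos 1 to 4. They were -2.72, -2.28, -1.75 and -0.55 in mutants 1 to 4. Mutants 1, 2 and 3 lay below all wild type embryos, and mutant 4 lay within their range. The means of 0.02 ± 1.00 and -1.82 ± 0.94 (SD, n = 4 each) differ by -1.85 ± 0.58 (SE), 3.60-fold lower in mutants, with a confidence interval of -3.13 to -0.56. Its unadjusted limma p was 9.11e-03 and its adjusted p 0.718, and the exact two-sided permutation test of the 8 arrays gave p = 0.0571. The difference was -2.18 within litter 1 and -1.52 within litter 2.

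The second F5 probe (chr1:166150216-166150275, plus strand, mm9), which does not span an intron, separated the genotypes. It read -0.35, -0.70, -0.13 and -0.16 in wild type embryos 1 to 4 and -1.88, -1.85, -2.75 and -1.52 in mutants 1 to 4. All 4 mutants lay below all 4 wild type embryos, and among the wild types embryo 3 was the highest, as on the intron-spanning probe, and embryo 2 the lowest. The means of -0.33 ± 0.26 and -2.00 ± 0.53 (SD, n = 4 each) differ by -1.67 ± 0.35 (SE), 3.17-fold lower in mutants, with a confidence interval of -2.45 to -0.89. The exact permutation p was 0.0286, the smallest that 4 against 4 arrays can give, and in the limma fit over 48110 probes the unadjusted p was 6.73e-04 and the adjusted p 0.539. It was 1 of the 16 probes of these genes whose groups did not overlap with the mutants lower, which 0.518% of all probes showed. Within litters its difference was -1.34 and -1.99, and over the 8 arrays it correlated with the intron-spanning probe at r = 0.71.

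**Figure D2:**
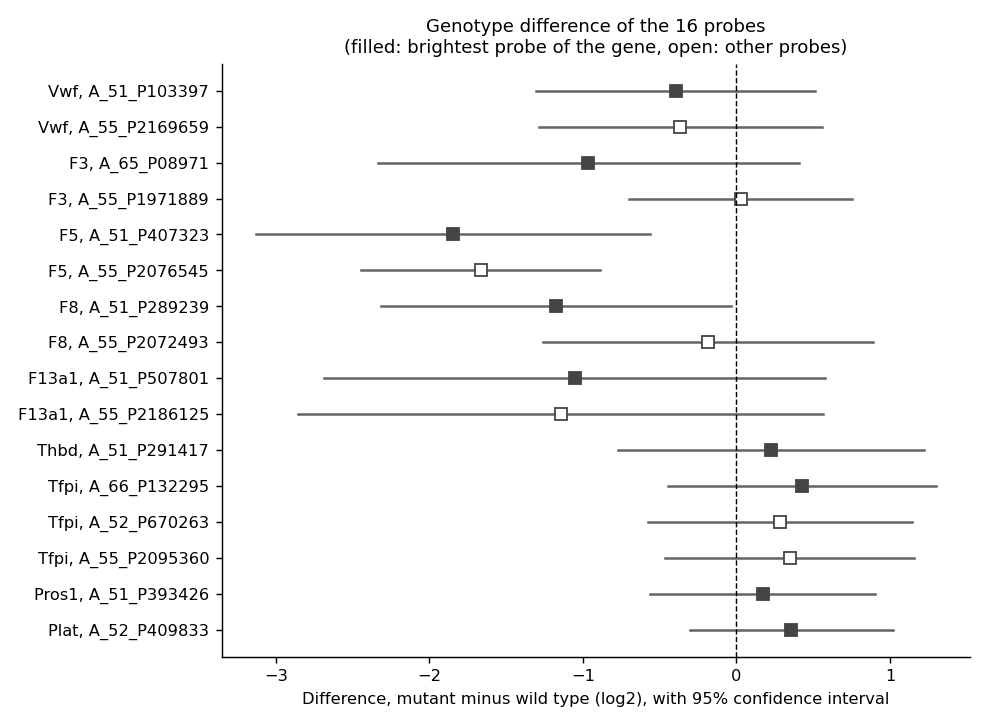
Difference between mutant and wild type embryos on the log2 scale for each of the 16 probes, with its 95% confidence interval from the limma fit on all probes; filled squares are the brightest probe of a gene and open squares its other probes. The intervals of both F5 probes and of the brightest F8 probe lie below 0, and the other 13 intervals include 0.

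Genes known from platelets and megakaryocytes were lower in mutants alongside F5. Of 14 such markers, all measured, 14 had a difference below 0 with a median of -2.50, 13 did not overlap between genotypes (0.534% of all features lower in mutants), and Treml1, Gp9 and Gp1ba passed the limma threshold, as did 0.0447% of all features, at -3.70, -3.49 and -2.80 (adjusted p = 0.0232, 0.0363 and 0.0441). With litter as a block no feature passed in limma (smallest adjusted p = 0.0531, 1954 features at an unadjusted p below 0.05), and none passed without any single one of wild type 1, 3 or 4 or mutant 1 or 3, so these calls were then lost, while the median difference of the 14 markers was -2.50 with the block and -2.77 to -2.27 on leaving out 1 array. Their median level was 1.03 to 1.74 in wild type and -1.69 to -0.87 in mutant embryos, and their summed linear signal was 57.2 to 114 and 12.7 to 22.8 times the 75th percentile. Gp1ba, part of the complex through which platelets bind von Willebrand factor, was among the 3 named features that followed the second F5 probe most closely over the 8 arrays (r = 0.973), after Il7r (r = 0.986) and Cstdc5 (r = 0.981). In RNA of a bead-enriched population, fewer cells of a type and less RNA per cell cannot be told apart, and the part of the platelet genes in the F5 difference was not tested.

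**Figure D3:**
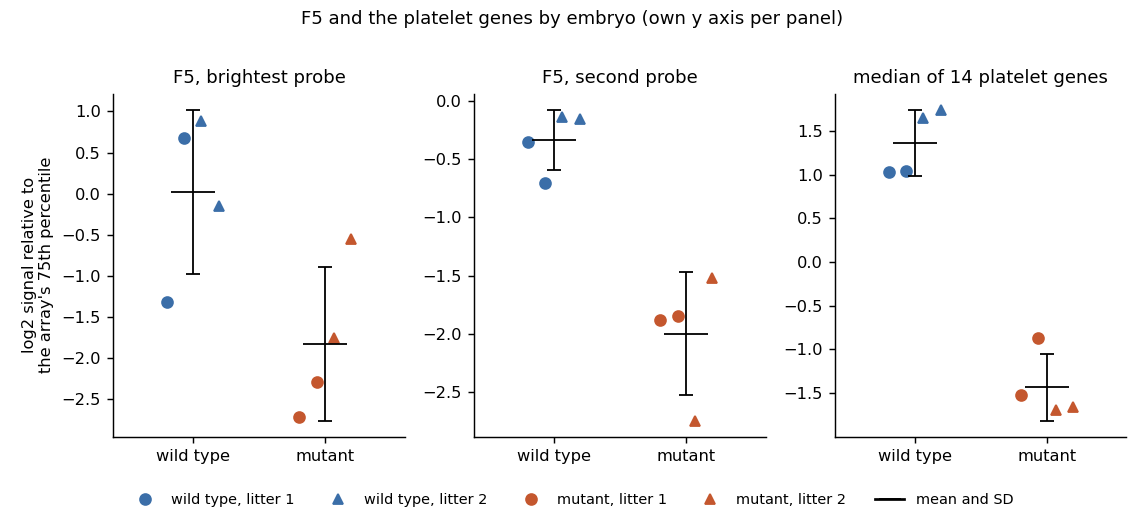
Level of the brightest F5 probe, of the second F5 probe and of the median of 14 platelet and megakaryocyte markers in each embryo, as log2 signal relative to the 75th percentile of the array, with bars for mean and SD. On the second probe (wild type -0.70 to -0.13, mutant -2.75 to -1.52) and in the platelet markers (wild type 1.03 to 1.74, mutant -1.69 to -0.87) no mutant reaches the wild type range.

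F8 encodes factor VIII, the cofactor of the protease that activates factor X, and endothelial cells are a known source of it. Its intron-spanning probe read -2.06, -0.63, -0.16 and -2.18 in wild type embryos 1 to 4 and -2.92, -2.63, -2.58 and -1.60 in mutants 1 to 4. Wild type embryos 2 and 3 were the highest, and mutants 1, 2 and 3 lay below all wild type embryos while mutant 4 did not. The means were -1.26 ± 1.02 and -2.43 ± 0.57 (SD, n = 4 each), and the difference of -1.18 ± 0.52 (SE), 2.26-fold lower in mutants, had an unadjusted limma p of 0.0445 and an adjusted p of 0.718. The exact permutation test gave p = 0.114. Without wild type embryos 2 and 3 and mutant 4, the arrays that stood apart, the difference was -0.59, with a limma adjusted p of 0.93. A second F8 probe, to another transcript (chrX:72577870-72577929), was well above background on 3 wild type and 2 mutant arrays only and differed by -0.19 ± 0.49 (SE).

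The intron-spanning probes of F3, F5 and F8 varied together across the arrays, at r = 0.74 to 0.92 for the 3 pairs. In F5 and F8, wild type embryos 2 and 3 were highest among the wild types and mutant 4 was highest among the mutants, and in F3 this held for wild type 3 and mutant 4, with wild type 2 missing. These are the 3 arrays that stood apart on the first principal component, with 85.8%, 92.0% and 91.9% of spots well above background, against 86.9% in wild type 4 and 74.9% to 83.0% in the other arrays, and the part of this in the differences was not tested. Without those arrays the F5 difference was -1.51, with a limma adjusted p of 0.887, and that of F3 was -0.60.

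F13a1 encodes the A subunit of factor XIII, the enzyme that cross-links fibrin. Its level went with litter more than with genotype. The brightest probe (chr13:36959214-36959273, minus strand, mm9) read 0.44, -0.09, 1.91 and 1.86 in wild type embryos 1 to 4 and -1.83, -0.75, 1.35 and 1.13 in mutants 1 to 4. All 4 embryos of litter 2 lay above all 4 of litter 1, and within each litter both mutants lay below both wild type embryos. The genotype difference was -1.05 ± 0.74 (SE; limma adjusted p = 0.718), and it was -1.47 in litter 1 and -0.64 in litter 2. Without mutant 1 it was -0.45, and without the other arrays in turn it was -1.51 to -0.76. With litter as a block its standard error was 0.34 and its unadjusted limma p 0.0127, with an adjusted p of 0.561. At that unadjusted level and with that block, 3 of 9 genes (F5, F8 and F13a1) were lower in mutants, as were 3.76% of all features.

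Across litters F13a1 rose from a mean of -0.56 ± 0.98 in litter 1 to 1.56 ± 0.38 in litter 2 (SD, n = 4 each). The difference of 2.12 ± 0.34 (SE), 4.34-fold, passed the threshold (limma adjusted p = 0.0168), and it was the only 1 of the 9 genes that did. Among all features 4.01% were called higher in litter 2 and 0.895% lower, and 0 of the 9 genes were called lower. Leaving out mutant 1, 2 or 3 took the adjusted p to 0.0617, 0.0631 and 0.0596, and leaving out the 3 arrays that stood apart took it to 0.0716, with differences of 1.82 to 2.25. The second F13a1 probe (chr13:37063829-37063888), well above background on 5 of 8 arrays, differed between litters by 1.97 (limma adjusted p = 0.0521 over all probes).

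Macrophage genes differed between the litters in the same direction as F13a1. Of 14 macrophage markers, 9 were called higher in litter 2 (4.01% of all features) and none lower (0.895%). Their median litter difference was 1.43, beside 0.33 over all features. Their median level was -1.19 to -0.45 in the 4 embryos of litter 1 and 0.80 to 1.08 in those of litter 2. By genotype, 13 of the 14 had a difference below 0, none passed the threshold, and the median was -0.24; their summed signal was 15.8 to 43.9 times the 75th percentile in wild type and 10.8 to 35.1 in mutant embryos. The brightest markers, the receptor Csf1r and the adaptor Tyrobp, differed between litters by 1.31 (limma adjusted p = 0.0367) and 1.41 (limma adjusted p = 0.0395). The named features that followed the brightest F13a1 probe most closely were the myeloid receptor genes Fcgr3 (r = 0.982), Lilrb4a (r = 0.978) and Il10ra (r = 0.978). Other cell types also differed between litters: 3 of 10 hepatocyte markers and 5 of 10 erythroid markers were called higher in litter 2, with median litter differences of 1.90 and 1.77. The part of the macrophage, hepatocyte and erythroid genes in the litter difference of F13a1 was not tested.

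**Figure D4:**
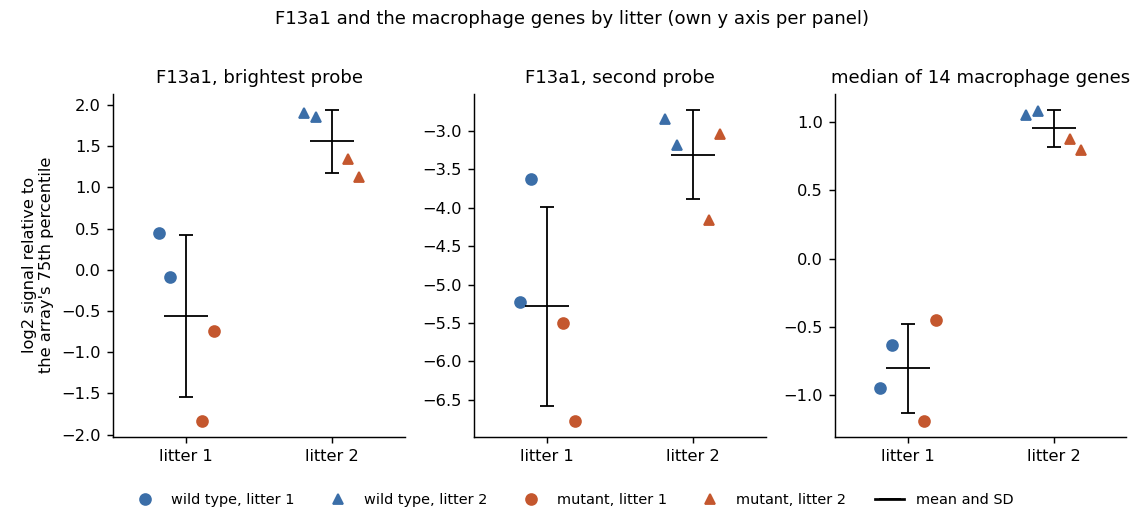
Level of both F13a1 probes and of the median of 14 macrophage markers in each embryo, set out by litter, as log2 signal relative to the 75th percentile of the array, with bars for the mean and SD of each litter. On the brightest F13a1 probe litter 1 runs from -1.83 to 0.44 and litter 2 from 1.13 to 1.91, and the macrophage markers run from -1.19 to -0.45 and from 0.80 to 1.08.

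Thbd encodes thrombomodulin, the receptor on endothelium that turns thrombin towards the activation of protein C. Its only probe (chr2:148230235-148230294, minus strand, mm9) read 3.71, 2.72, 2.06 and 2.87 in wild type embryos 1 to 4 and 3.53, 3.63, 2.93 and 2.17 in mutants 1 to 4. All mutants lay within the wild type range, and wild type 3 and mutant 4 were the lowest of their groups. The difference of 0.23 ± 0.46 (SE) had a confidence interval of -0.78 to 1.23 (limma adjusted p = 0.806). With quantile normalization, in place of the 75th percentile, its sign turned to -0.14. Between litters Thbd differed by -0.89 ± 0.35 (SE), lower in litter 2, which did not pass the threshold (limma adjusted p = 0.153). It passed at -0.73 only without the 3 arrays that stood apart (limma adjusted p = 0.0484).

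Tfpi encodes tissue factor pathway inhibitor, which blocks the complex of tissue factor with factor VIIa. Its brightest probe (chr2:84273059-84273118, minus strand, mm9) read 3.74, 2.99, 2.28 and 3.21 in wild type embryos 1 to 4 and 3.86, 3.85, 3.29 and 2.92 in mutants 1 to 4. Mutants 1 and 2 lay above all wild type embryos and mutants 3 and 4 within their range. The difference was 0.43 ± 0.40 (SE; limma adjusted p = 0.718), and on the other probes, at chr2:84281022-84281081 and chr2:84284179-84284238, it was 0.28 and 0.35. With quantile normalization it was 0.05, and without wild type 3 it was 0.17. The 3 probes followed each other closely over the 8 arrays (r = 0.968 to 0.977).

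Pros1 encodes protein S, the cofactor of activated protein C and of tissue factor pathway inhibitor. Its probe (chr16:62928674-62928733, plus strand, mm9) read 2.28, 1.69, 1.43 and 1.78 in wild type embryos 1 to 4 and 2.18, 2.29, 1.85 and 1.54 in mutants 1 to 4. The groups overlapped over nearly their whole range, and the difference was 0.17 ± 0.34 (SE), with a confidence interval of -0.58 to 0.92 (limma adjusted p = 0.802). With quantile normalization it was -0.12. Thbd, Tfpi and Pros1 varied together over the 8 arrays (r = 0.951 to 0.989), with wild type 3 lowest among the wild types in each of them and mutant 4 lowest among the mutants. Endothelial markers shared these lowest arrays, with a median level of 3.48 in wild type 3 and 4.14 in mutant 4, each the lowest of its group. Both arrays were among the 3 that stood apart on the first principal component. Genes outside the endothelial list also followed the anticoagulant genes, such as Eef1g with Tfpi (r = 0.9989) and Tmed10 with Pros1 (r = 0.9977). The part of the endothelial markers and of these arrays in the levels of the 3 anticoagulant genes was not tested.

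Plat encodes tissue plasminogen activator, the protease that turns plasminogen into plasmin. Its probe (chr8:23892531-23892590, plus strand, mm9) read 0.74, 0.47, 0.55 and 1.13 in wild type embryos 1 to 4 and 1.07, 1.10, 1.20 and 0.93 in mutants 1 to 4. Mutant 3 was the highest of the 8, and wild type 4 lay among the mutants. The means were 0.72 ± 0.29 and 1.08 ± 0.11 (SD, n = 4 each), and the difference was 0.36 ± 0.31 (SE), with a confidence interval of -0.33 to 1.04 (limma adjusted p = 0.718; exact permutation p = 0.114). Between litters it differed by 0.11 ± 0.27 (SE).

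The genotype difference itself was compared between litters with an interaction term. It was called in 0 of the 9 genes and in 0% of features, with 489 of 40244 features at an unadjusted limma p below 0.05. The widest gaps were in F3, with -0.33 in litter 1 and -1.33 in litter 2, and in F13a1, with -1.47 and -0.64. Confidence intervals of the interaction ran from -4.11 to 2.10 for F3 and from -0.78 to 2.42 for F13a1, and so they leave room for large differences between litters.

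The named features most like each gene over the arrays are given here by Pearson's r. For Vwf they were Ankrd37 (r = 0.980), Plcg2 (r = 0.957) and Map4k2 (r = 0.950), and for the second Vwf probe the first was Procr (r = 0.957), the endothelial receptor of protein C. For the intron-spanning probes they included 2210417A02Rik and Clcn5 for F3 (r = 0.994 and 0.990, 7 arrays) and Gm4419 and Rgs9bp for F5 (r = 0.994 and 0.988), and Elapor2, Olfr1490 and Gbp2-ps for F8 (r = 0.989 to 0.993). For Thbd they were C130074G19Rik, Grk2 and Dusp3 (r = 0.996 to 0.997), for Tfpi Invs, Eef1g and Rpl9 (r = 0.998 to 0.999), for Pros1 Tmed10, Micos10 and Klhdc7a (r = 0.998), and for Plat Isyna1, D430019H16Rik and Pdxp (r = 0.982 to 0.986). These are the highest of about 21040 correlations over 8 arrays that share slides and the spread described above, and they are given as descriptions.

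Other genes of clotting and its control were taken as 5 lists, and none of their measured members passed the threshold for genotype. Of 12 other plasma factors 11 were measured, 9 with a difference above 0 and 2 below, with a median of 0.30, which turned to -0.24 without mutant 4. The brightest were F10, encoding factor X, at 3.38 ± 0.46 in wild type and 3.76 ± 0.30 in mutant embryos, and F9, encoding factor IX, at -0.82 ± 0.58 and -0.45 ± 0.28 (SD, n = 4 each). The list's median difference was -0.18 in litter 1 and 0.71 in litter 2. Fgg, a fibrinogen chain, and Kng1, a kininogen, both named after their values were seen, were called higher in litter 2, as were 4.01% of all features. Fgg was well above background on only 5 of 8 arrays. In wild type 1, wild type 2 and mutant 1, all of litter 1, it lay at -6.83, -5.13 and -6.34. The lowest levels well above background on those arrays were -4.58, -4.86 and -4.83, so its litter difference is set partly against background readings. The litter differences of Fgg and Kng1 were 4.28 and 3.12 (limma adjusted p = 0.0234 and 0.0290), and the Kng1 spot of wild type 2 was left out. Liver genes went the same way: the median difference of 10 hepatocyte markers was -0.05 in litter 1 and 1.91 in litter 2, with levels of -2.72 to -1.05 in wild type and -2.10 to 1.30 in mutant embryos, the highest in mutant 4, and summed signals of 21.7 to 37.1 and 38.1 to 120. The part of liver RNA in these factors was not tested.

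Of 12 other anticoagulant genes 11 were measured, 4 above 0 and 7 below, with a median of -0.15. The brightest were Nos3, the endothelial nitric oxide synthase, with a difference of 0.08 ± 0.44 (SE), and Gas6, a protein related to protein S, with -0.34 ± 0.33 (SE). Of 11 other fibrinolysis genes 10 were measured, 5 on either side of 0, with a median of 0.12. The brightest were Anxa2 and S100a10, which together form a cell surface receptor for plasminogen and its activator Plat, with 0.41 ± 0.45 and 0.48 ± 0.44 (SE). Of these 10 genes 1 did not overlap between genotypes, with the mutants lower, as did 0.534% of all features. This was Serpinb2, an inhibitor of plasminogen activators that is also made by macrophages. Serpinb2 lay at -3.18 ± 0.23 in wild type and -5.89 ± 1.15 in mutant embryos (SD, n = 4 each, limma adjusted p = 0.272). It was well above background on all 4 wild type arrays but on only 1 mutant array, and it was named after its values were seen. Plau, encoding urokinase, also named after its values were seen, was called lower in litter 2 (-1.59, limma adjusted p = 0.0331), as were 0.895% of all features.

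Of 10 genes that process clotting proteins 9 were measured, 8 above 0 and 1 below, with a median of 0.33. The brightest were P4hb, protein disulfide isomerase, with 0.41 ± 0.39 (SE), and Mcfd2, part of the receptor that carries factors V and VIII out of the endoplasmic reticulum, with 0.37 ± 0.40 (SE). Of 13 genes of Weibel-Palade bodies, the endothelial granules that store von Willebrand factor, 11 were measured, 4 above 0 and 7 below, with a median of -0.08. The brightest was Cd63, a granule membrane protein, with 0.25 ± 0.36 (SE). Of these 11 genes 1 did not overlap between genotypes, with the mutants lower, as did 0.534% of all features. This was Rab27a, a small GTPase of these granules, named after its values were seen. It differed by -0.80 ± 0.34 (SE, limma adjusted p = 0.718). Its spot of wild type 2 was left out as an outlier, so only 3 wild type values stood against 4 mutants.

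**Figure D5:**
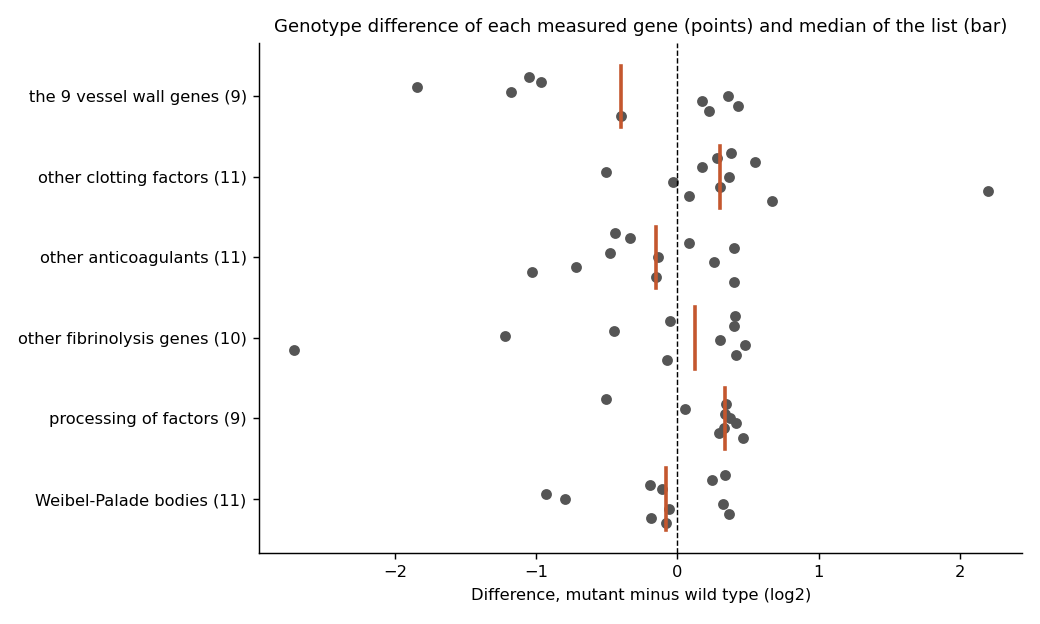
Difference between mutant and wild type embryos on the log2 scale for every measured gene (points) of the 9 vessel wall genes and of 5 lists of other clotting genes, with the median of each list as a bar. Medians lie at -0.40 for the 9 genes and between -0.15 and 0.33 for the other lists, and no point passed the limma threshold.

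Other cell types were followed through markers. Of 15 endothelial markers 11 were above 0 and 4 below by genotype, with a median of 0.23 and none called. The median turned to -0.17 with quantile normalization and to -0.06 without wild type 3. The brightest, Egfl7 and Cd93, differed by 0.14 ± 0.47 and 0.23 ± 0.46 (SE). Between litters 4 of the 15 were called lower in litter 2, as were 0.895% of all features. Of 10 mesenchyme and pericyte markers 7 were above 0 with a median of 0.09, and the brightest, Col1a2 and Col3a1, differed by 0.17 and 0.41. Of 10 erythroid markers 8 were above 0 with a median of 0.40, and none was called for genotype. Between litters 5 of the 10 were called higher in litter 2, as were 4.01% of all features. The brightest, Hbb-y and Hba-a1, differed by genotype by 0.51 and 0.38. The brightest hepatocyte markers, Trf and Apoa2, differed by 0.65 and 0.71, and none of the 10 was called for genotype. Trf did not overlap between genotypes, with the mutants higher, and the share of all features separated in that direction was not counted. The erythroid marker Epor, named after its values were seen, did not overlap with the mutants lower (-0.65), as did 0.534% of all features.

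Promoter sequences of RefSeq (GRCm38, the 250 bases before a start site) were matched by symbol for 6 of the 9 genes, in 8 windows; Vwf, Thbd and Plat had no match. They were searched on both strands for GATA with A or T before it and A or G after it, for the PU.1-type letters GAGGAAG and, as an E-box, for CANNTG, and matches may overlap. The GATA letters are in 4 of the 8 windows (F8, Pros1 and both of Tfpi) and in 26.5% of 32851 promoter windows of the same length, and GAGGAAG in 2 of 8 and in 10.6%. CANNTG is in both windows of F13a1, in those of F8 and Pros1 and in the Tfpi window that starts at chr2:84474175. It is absent from the windows of F3 and F5 and from the other Tfpi window, and it is in 66.2% of all. A match is a description of letters and not a binding site. The windows of F5 and F8, the genes with the larger genotype differences, and the upstream window of F13a1, the gene called between litters, are printed in the direction of transcription, with GATA matches of F8 and the GAGGAAG match of F13a1 in capitals.
F5 (chr1:164151585-164151834, plus strand): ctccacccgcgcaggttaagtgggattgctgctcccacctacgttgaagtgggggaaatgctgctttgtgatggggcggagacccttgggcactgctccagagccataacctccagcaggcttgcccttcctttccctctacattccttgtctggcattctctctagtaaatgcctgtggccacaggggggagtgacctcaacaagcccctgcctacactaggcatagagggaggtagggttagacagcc
F8 (chrX:75380042-75380291, minus strand): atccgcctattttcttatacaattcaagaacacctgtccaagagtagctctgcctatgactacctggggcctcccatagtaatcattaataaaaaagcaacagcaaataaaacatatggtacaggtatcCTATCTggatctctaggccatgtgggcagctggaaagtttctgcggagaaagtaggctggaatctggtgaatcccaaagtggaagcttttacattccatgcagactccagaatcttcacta
F13a1 (chr13:37050245-37050494, minus strand): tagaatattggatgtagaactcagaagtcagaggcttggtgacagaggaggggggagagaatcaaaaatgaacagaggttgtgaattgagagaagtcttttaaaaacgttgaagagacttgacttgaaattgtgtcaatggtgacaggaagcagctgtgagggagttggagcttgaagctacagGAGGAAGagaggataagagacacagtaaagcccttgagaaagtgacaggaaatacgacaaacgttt
The F5 window has none of the GATA letters. The F8 window has them once, on the opposite strand and 121 bases before the start, and the F13a1 window has GAGGAAG once, 66 bases before the start.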

How the data were processed

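RNA of CD31-enriched cells from 8 embryos, 4 mutant and 4 wild type in 2 litters, was measured on 1-colour Agilent arrays. Per the file headers, the deposited intensity values came from Agilent Feature Extraction 10.7.3.1 with mm9 probe annotation, background-subtracted and detrended within the array; aligning arrays to each other was not among its steps. The authors' deposited table gives log2 values, log2 fold changes and p-values and adjusted p-values per probe, for which the submitters' processing notes name limma, and served as an alternative.

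From the scanner files, log2 signal minus the array's 75th percentile was computed, without control spots and outlier spots. Features were the brightest probe per symbol among those well above background on at least 4 of 8 arrays, with at least 3 values per group; updated symbols came from RefSeq accessions or synonyms (26747 and 4473 probes), and members were matched by the array's own name. limma 3.58.1 in R 4.3.3 tested genotype, with litter as a covariate for litter differences and an interaction term between them (two-sided). The fit was tested on simulated data. Single values were also tested by exact permutation of 70 arrangements (35 for F3). Litter holds both genotypes, so values with litter as a block stand beside a result whose call they change. The number of arrays limits the precision.

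The members and lists were chosen with earlier results of these data known. Named genes were all members, for each list those past the threshold (at most 4) or the 2 brightest, the 3 features most like each member by Pearson r, and Gata2; a few of these are not reported here. Alternatives were other scalings, background correction, filters, probe averaging, blocks, the authors' values and left-out arrays.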

Additional observations from a re-analysis of the deposited data

How the results depend on the processing

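Of the 9 genes none passed the genotype threshold under any of the 18 alternatives. F5 kept its direction in all 18, from -2.29 to -1.51, with an unadjusted limma p below 0.05 in each and an adjusted p of 0.154 to 0.998; F8 kept its direction at -1.49 to -0.59, with that unadjusted p in 8. The number of features past the genotype threshold was 18, against 1 with quantile normalization, 5 with normexp and quantile normalization, 8 without the filter on dim probes, 0 with litter as a block, 0 without wild type 2, wild type 3 and mutant 4, 52 with the authors' deposited values, and 0 to 24 on leaving out 1 array. For litter it was 1972, against 1012 with the array median as scale, 795 with quantile normalization, 5792 without those 3 arrays, and 4 to 3969 on leaving out 1 array, where the count of the 9 genes was 0 to 1. Scaling by the array median moved the median difference of all features from 0.05 to 0.32, and the authors' deposited values to 0.40.

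Signs turned for small differences. By genotype, Thbd was -0.14 with quantile normalization and -0.12 with normexp, with -0.034 to 0.52 on leaving out 1 array, and Pros1 was -0.12 and -0.11. By litter, with the array median F3 was -0.38, F8 -0.042 and Plat -0.36; with the authors' deposited values they were -0.64, -0.042 and -0.36; F3 was -0.74 without the 3 arrays and -0.19 to 0.81 on leaving out 1, and Plat -0.036 to 0.20; Vwf was 0.10 with quantile normalization and 0.25 with normexp. Vwf by genotype ran from -0.82 to -0.13 and Tfpi from 0.0095 to 0.69 over the 18 alternatives. List medians by genotype turned too: with quantile normalization the endothelial markers were at -0.17 and the mesenchyme and pericyte markers at -0.27, and with the array median the other anticoagulants were at 0.11, the Weibel-Palade genes at 0.18 and the macrophage markers at 0.025; without wild type 2, wild type 3 and mutant 4 the other fibrinolysis genes were at -0.12 and the erythroid markers at -0.30. The platelet and hepatocyte medians kept their sign in all 18. The cause was not tested.

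Replicate numbers are in the labels but do not pair embryos: deviations of same-numbered embryos correlated at 0.62, -0.03, -0.10 and -0.16. With the number as a block, 0 features were called (1386 at an unadjusted limma p below 0.05), and the F5 difference was -1.85 (adjusted p = 0.669).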

Other observations

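In the authors' deposited table, 15 of the 16 probes have the same sign as found here from the scanner files. The exception is the second F8 probe, listed there at 0.08 against -0.19 here. The authors' deposited table gives F5 log2 fold changes of -1.58 (p = 0.00436) and -1.40 (p = 0.0115) for its intron-spanning and second probe, with an adjusted p of 0.624 for both, from limma. It gives the intron-spanning F3 probe -1.06 and the other F3 probe 0.29.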
